A study of Sus scrofa with 3 samples.

Results

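The genes described here are NQO1 and 8 others of the NRF2 system: the NRF2 target genes HMOX1, GCLC, GCLM, TXNRD1, SRXN1 and SLC7A11, and the regulators NFE2L2 and KEAP1. They are 9 of the 34579 features in each liver library. They were taken by name, and 8 were found under their own symbol. SRXN1 was found under LOC100517736, whose number is its RefSeq gene ID. The set was chosen by the FPKM values of NQO1, which were already known to be higher in the castrated library than in both others, so the NQO1 values are a description and not a finding. The question was whether the other genes of the NRF2 programme shared that pattern.

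Liver RNA came from male Chinese Wuzhishan pigs, a miniature breed, which the labels give as 6 to 7 months old. In the study's methods this is the age at which the pigs were obtained, so they were older when liver was taken. The 3 groups were intact males (IM), castrated males (CM) and castrated males given testosterone propionate at 10 mg/kg weekly (CMT). All 3 groups, the intact controls included, had eaten a diet rich in fat and cholesterol (HFC) for 12 weeks, which held lard (15%), egg yolk powder (10%), sodium cholate (0.5%) and cholesterol (1.5%). No library from pigs on a normal diet was used, so every value below describes liver under this diet. Per the labels, RNA of 3 pigs was mixed in equal amounts to give 1 library per group, while the study's methods describe larger groups. The spread between pigs is therefore unknown, no p-value is given, and 1 pig with a high value cannot be told apart from a rise in all of them. The comparisons CM versus IM and CMT versus CM share the CM library, so a chance deviation of that library enters both with opposite signs. In whole liver, fewer cells of a type and less RNA per cell cannot be told apart.

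Values are FPKM as deposited, counts divided by transcript length and by 1 divisor per library, which permits levels of different genes to be compared per length. Read numbers were recovered from the steps between FPKM values, and totalled 32197628, 36126730 and 25419901 reads for IM, CM and CMT. The divisors were 2.51, 3.42 and 2.04 in that order, too small to be these totals in the unit that FPKM normally uses. Levels are therefore higher than by the usual definition of FPKM. The FPKM minimum of 1 used below admits genes with few reads, such as CBR1 with 5, 2 and 2. The divisor of CM was the largest relative to its reads. Equal totals of recovered reads would raise each ratio of CM to IM by a factor of 1.21. Where values of the libraries follow each other without labels, they are in the order IM, CM and CMT. Each ratio is given with a 95% exact binomial interval on those reads, which covers counting error only and says nothing about pigs. A gene is said to have risen or fallen when the files type it as mRNA, its FPKM was at least 1 in all 3 libraries and its ratio was at least 1.5-fold. All 10 hepatocyte markers on the list were measured, led by ALB and TF, and their FPKM summed to 1071900, 795860 and 846670 in the IM, CM and CMT libraries, so the defining markers of the labelled tissue were present.

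NRF2, the protein encoded by NFE2L2, is a transcription factor that is kept low by KEAP1, an adaptor that delivers it to a ubiquitin ligase. Oxidants and electrophiles modify cysteines of KEAP1, NRF2 then accumulates, binds antioxidant response elements together with small MAF proteins, and raises genes for quinone reduction, glutathione synthesis, thioredoxin recycling, haem breakdown and NADPH supply. In liver the system is known for its part in the handling of drugs, bile acids and reactive lipids. Because NRF2 is controlled mainly at the level of the protein, its transcript is a poor guide to its activity.

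NQO1, the cytosolic enzyme that reduces quinones with NADPH or NADH and a gene often used to read NRF2 activity, stood at 604 FPKM in CM beside 47.5 in IM and 39.9 in CMT. It was far higher in the castrated library than in both others, and the IM and CMT values lay close together. The ratio of CM to IM was 12.7 (95% interval 10.4 to 15.7, from 1751 reads against 101), and that of CM to CMT was 15.1 (11.9 to 19.5, with 69 reads in CMT). Of 15613 mRNA features that passed the FPKM minimum, 11 had a larger ratio of CM to IM, and 6 had a larger value of the smaller of both ratios. The ratio of CMT to IM was 0.841, with an interval of 0.610 to 1.15 that spans equality.

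SRXN1, sulfiredoxin, which restores peroxiredoxins that peroxide has over-oxidised, followed the same course at a lower level, with 25.8 FPKM in IM against 168 in CM and 21.1 in CMT. Its CM value stood above both others. It was 6.48-fold higher in CM than in IM (5.52 to 7.66) and 7.95-fold higher than in CMT (6.55 to 9.74). Only 34 of the 15613 features had a larger ratio of CM to IM. Between CMT and IM the ratio was 0.815 (0.635 to 1.04).

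TXNRD1, cytosolic thioredoxin reductase, had 199, 254 and 181 FPKM in the IM, CM and CMT libraries. The castrated library was the highest here too, but by less than the 1.5-fold threshold against either library. The ratios were 1.28 to IM (1.20 to 1.35) and 1.40 to CMT (1.31 to 1.5).

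**Figure D1:**
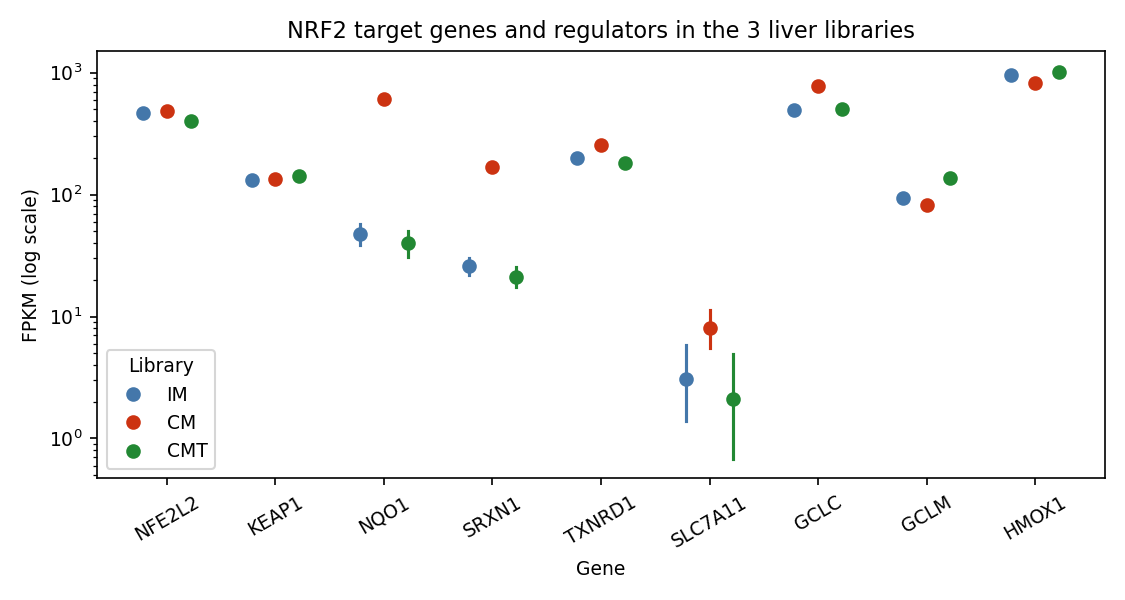
FPKM (log axis) of the 9 genes in the IM, CM and CMT libraries, 1 point per pooled library. NQO1 and SRXN1 show the widest gap between CM and the other libraries, while HMOX1, NFE2L2 and KEAP1 lie within 1.5-fold in all 3 libraries.

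The genes of glutathione supply did not move as a group. SLC7A11, the cystine and glutamate exchanger that brings in cysteine, was the lowest of the 9 genes, with 8.0 FPKM in CM beside 3.07 in IM and 2.10 in CMT. These values rest on 9, 32 and 5 reads. The ratio of CM to IM was 2.61 (1.22 to 6.22), but with the reads divided by 2, to allow for both mates of a pair having been counted, the interval ran from 0.947 to 12.1 and included equality. The depth therefore sets a wide limit on the size of this rise.

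GCLC, the catalytic subunit of glutamate-cysteine ligase, the first and limiting enzyme of glutathione synthesis, had 493 FPKM in IM against 780.4 in CM and 503 in CMT. CM was the highest and IM and CMT were near each other. GCLC rose 1.58-fold from IM to CM (1.53 to 1.64) and was 1.55-fold higher in CM than in CMT (1.49 to 1.61), so it lay just inside the threshold. Of the 9 genes, TXNRD1 lay just outside it.

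GCLM, the modifier subunit of the same enzyme, went a different way. It stood at 94.4, 82.6 and 136 FPKM in the IM, CM and CMT libraries, so CM was the lowest library and CMT the highest. The ratio of CM to IM was 0.875 (0.810 to 0.945), short of the threshold, and it turned to 1.06 when the libraries were scaled to equal totals of recovered reads and to 1.05 when scaled to equal FPKM sums. From CM to CMT GCLM rose 1.65-fold (1.53 to 1.78), which under the same scalings was 1.40-fold and 1.39-fold. The ratio of the catalytic to the modifier transcript, which does not depend on scaling between libraries, was 5.22 in IM (4.90 to 5.57), 9.45 in CM (8.94 to 9.996) and 3.69 in CMT (3.47 to 3.93). The 3 intervals do not overlap.

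HMOX1, haem oxygenase 1, which opens the haem ring and releases iron, carbon monoxide and biliverdin, was the most abundant of the 9 genes in every library, with 825 FPKM in CM beside 961 in IM and 1013 in CMT. It was lowest in the library in which NQO1 was highest, but by less than the threshold. The ratio of CM to IM was 0.859 (0.823 to 0.897) as deposited, 1.04 with equal totals of recovered reads and 1.03 with equal FPKM sums, so its direction depends on the scaling. Transcripts of red cells, which carry much of the body's haem, differed more between the libraries than HMOX1 did. The FPKM sum of 6 measured erythroid markers was 17301 in IM against 3424 in CM and 5198 in CMT, nearly all of it HBB, with AHSP listed at 0 in CM, and the part of blood in the HMOX1 values was not tested.

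The transcripts of the regulators stayed close to level. NFE2L2 had 471, 485 and 401 FPKM in the IM, CM and CMT libraries, with a ratio of CM to IM of 1.03 (0.983 to 1.08) and of CM to CMT of 1.21 (1.15 to 1.28). KEAP1 had 133 FPKM in CM beside 131 in IM and 142 in CMT, and its ratio of CM to IM was 1.02, without an interval because no reads could be recovered for it. NFE2L2 and KEAP1 both lay within 1.5-fold in all 3 comparisons. The level of NFE2L2 was 3.59 times that of KEAP1 in IM, 3.64 times in CM and 2.82 times in CMT. None of these values bears on the amount or the activity of the NRF2 protein, which RNA does not measure.

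**Figure D2:**
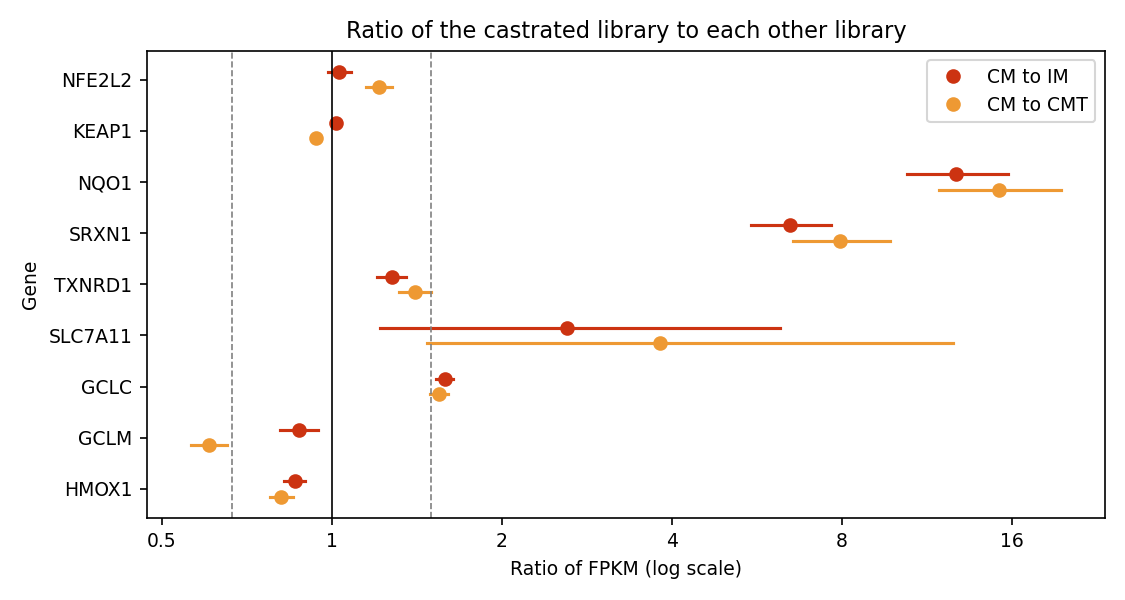
Ratio of the CM library to IM and to CMT for each of the 9 genes (log axis), with 95% exact binomial intervals on recovered reads where these exist. NQO1, SRXN1, SLC7A11 and GCLC lie past 1.5-fold against both libraries, and GCLM and HMOX1 lie below equality.

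Counted over the 9 genes, which all passed the FPKM minimum, 4 rose from IM to CM (NQO1, SRXN1, SLC7A11 and GCLC), against 11.1% of all mRNA features, and 0 fell, against 12.1%. From CM to CMT the same 4 genes fell, against a background of 13.5%, and 1, GCLM, rose, against 12.1%. Because NQO1 was the reason for the choice, the counts are also given without it: 3 of the other 8 genes, or 37.5%, rose from IM to CM, and the same 3 fell from CM to CMT. With equal totals of recovered reads or equal FPKM sums TXNRD1 passed the threshold as well, at 1.55-fold and 1.53-fold. The shares of all mRNA features were not recomputed for these scalings. Between CMT and IM 0 of 9 differed by 1.5-fold, where 6.67% of features were higher and 10.1% lower. All 4 genes, or 3 of 8 without NQO1, stood in CM at least 1.5-fold above both other libraries, a pattern held by 6.87% of features, while 7.12% stood below both. The median log2 ratio of the 9 genes was 0.35 for CM to IM and -0.49 for CMT to CM, beside -0.02 and 0.01 over all mRNA features. Without NQO1 these medians were 0.20 and -0.38. Apart from NQO1 and SRXN1 the rises were modest or rested on few reads.

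The order of the 9 genes by level was the same in IM and CMT: HMOX1, GCLC, NFE2L2, TXNRD1, KEAP1, GCLM, NQO1, SRXN1 and SLC7A11. In CM NQO1 moved from rank 7 to rank 3 and SRXN1 from rank 8 to rank 6. Of the neighbouring pairs with intervals, only GCLC and NFE2L2 in IM overlapped. Set against NFE2L2 in the same library, which removes any scaling between libraries, the level of NQO1 was 0.101 in IM (0.0818 to 0.123), 1.24 in CM (1.18 to 1.32) and 0.0995 in CMT (0.0772 to 0.127). The same ratio for SRXN1 was 0.0549 in IM against 0.345 in CM and 0.0526 in CMT. For TXNRD1 it was 0.422, 0.523 and 0.451 in that order, and for HMOX1 2.04, 1.7 and 2.53. NQO1 thus outnumbered the transcript of its own regulator, per length, in CM and in neither other library. NQO1 and SRXN1 did not move in step, since the level of NQO1 was 1.84 times that of SRXN1 in IM (1.42 to 2.37) and 1.89 times in CMT (1.38 to 2.58) but 3.60 times in CM (3.36 to 3.87).

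**Figure D3:**
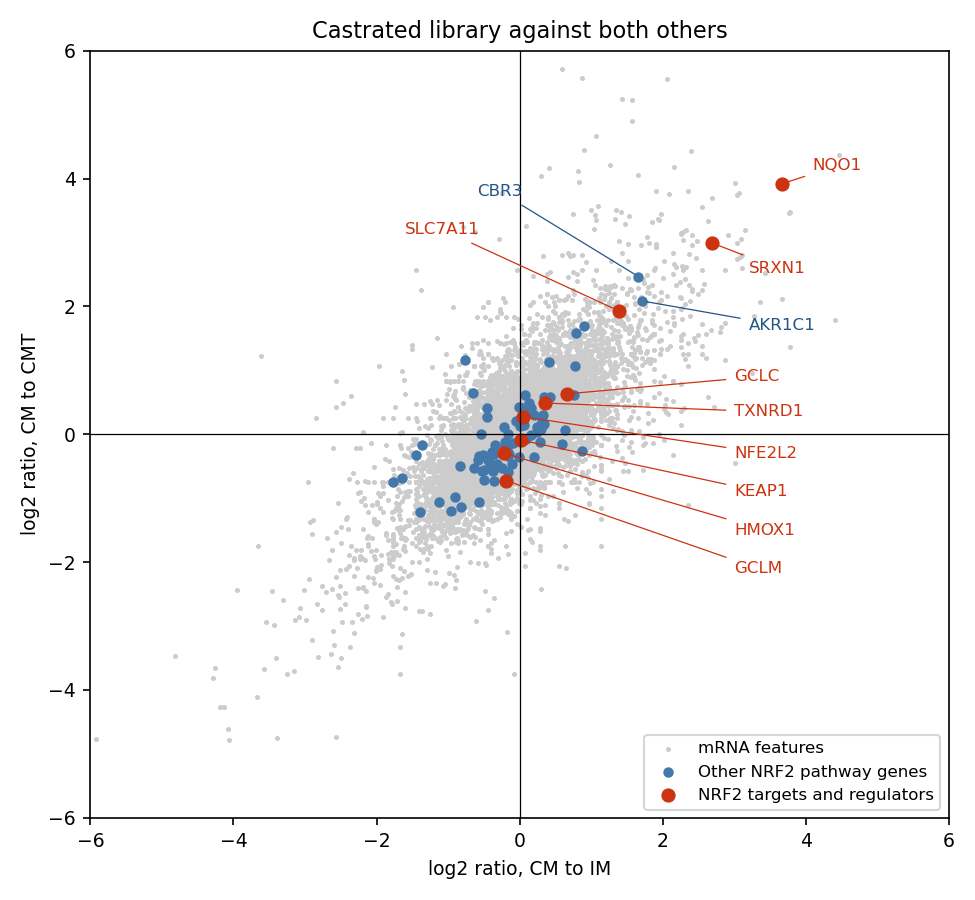
log2 ratio of CM to IM (horizontal) against log2 ratio of CM to CMT (vertical) for mRNA features with FPKM of at least 1 in all 3 libraries, with the 9 genes named. Both axes use the CM library, so points gather along the diagonal by construction, and 11 of the 15613 features lie outside the plotted range. NQO1 and SRXN1 lie in the far upper right corner.

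The genes whose pattern was most like that of NQO1 were sought among 12126 mRNA features with FPKM of at least 10 in all 3 libraries, by the distance between pairs of log2 ratios (CM to IM and CMT to CM). Over 3 libraries this is a weak measure. TYMS, thymidylate synthase of DNA precursor synthesis, was nearest, at a distance of 0.89, with 52.8, 470.4 and 51.3 FPKM in the IM, CM and CMT libraries. PIGR, the receptor that carries polymeric immunoglobulin across epithelia, was next at 1.17, with 36.1, 212 and 17.98 FPKM. SRXN1 followed in rank 3, at 1.35. LOC100626400 and PDZK1IP1 came next, at 1.36 and 1.42. The other genes of the set were distant, with GCLC in rank 631, TXNRD1 in 1272 and GCLM in 10503, and SLC7A11 was too low to be ranked.

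A wider set of 99 genes tied to the pathway, drawn up by function and without the 9, was examined in 7 lists. Of these, 80 were found in the files, and 76 were typed as mRNA and passed the FPKM minimum. NQO2, a second quinone reductase, and ALDH1A1, an aldehyde dehydrogenase, were abundant but typed as miscRNA and so were not counted. NQO2 had 858, 674 and 766 FPKM and ALDH1A1 had 7799, 9350 and 8281. From IM to CM 9 of the 76 rose, or 11.8%, and 13 fell, or 17.1%, beside 11.1% and 12.1% of all mRNA features. The share that rose was thus close to the background. The same 11.1% and 12.1% are the background for the counts from IM to CM of each list below, several of which hold few genes. The median log2 ratio was -0.17. These counts depend on scaling: with equal totals of recovered reads 16 rose and 8 fell, and with equal FPKM sums 14 rose and 8 fell. Both scalings shift the ratio of every feature alike. The shares of all mRNA features were not recomputed under them, so these counts cannot be set against a background. From CM to CMT 11 rose and 11 fell, where 12.1% and 13.5% of features did. In CM, 6 of the 76, or 7.89%, stood at least 1.5-fold above both other libraries, beside 6.87% of all features, and 7, or 9.21%, stood below both, beside 7.12%. Between IM and CMT 2 of the 76 were higher in CMT, or 2.63%, and 12 were lower, or 15.8%, where 6.67% and 10.1% of features were.

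The detoxification list held the largest rises among these genes. Of its 13 genes that passed, 4 rose and 3 fell from IM to CM. CBR3, a carbonyl reductase, rose 3.16-fold (2.44 to 4.16), from 54.8 FPKM in IM to 173 in CM, and stood at 31.4 in CMT. AKR1C1, an aldo-keto reductase that reduces steroids and carbonyls, had 342 FPKM in CM beside 104 in IM and 80.5 in CMT. Both stood highest in CM like NQO1. The ratio of CMT to IM was 0.572 (0.366 to 0.876) for CBR3, an interval that overlaps that of NQO1 (0.610 to 1.15). With the reads divided by 2 the interval of CBR3, 0.291 to 1.04, included equality. For AKR1C1 no reads were recovered, and reads may be shared with its close relatives AKR1C4 and AKR1CL1, which had 822 and 1086 FPKM in IM and 803 and 1061 in CM. PIR, an iron-binding nuclear protein, rose 1.55-fold and CBR4, a mitochondrial reductase of quinones, rose 1.51-fold, but for these the CMT values of 82.4 and 246 FPKM were not lower than in IM, at 55.9 and 147. AKR7A2, an aldehyde reductase with a far higher level, fell 1.95-fold, from 2950 FPKM in IM to 1514 in CM, with 3490 in CMT. The remaining members that fell, CBR1 and ADH7, were low, with 6.87 and 4.16 FPKM in IM and 2.02 and 1.53 in CM. CBR1 rests on 5, 2 and 2 reads, and the interval of its ratio of CM to IM, 0.0280 to 1.79, included equality. ADH7 rests on 16, 8 and 6 reads, with an interval of 0.136 to 0.909.

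Among the glutathione S-transferases and efflux pumps, 2 of 12 rose and 2 fell from IM to CM. These are 16.7% each, beside 11.1% and 12.1% of all mRNA features, so the list did not stand apart from the background. GSTM3, listed under LOC100514231, had 650.0 FPKM in IM against 1123 in CM and 374 in CMT, a ratio of CM to IM of 1.73 (1.65 to 1.81) and of CM to CMT of 3.0. GSTA4, which conjugates the lipid aldehyde hydroxynonenal, rose 1.83-fold from IM to CM, from 149 to 271 FPKM, and stood at 325 in CMT. MGST3, a microsomal transferase, fell 2.18-fold, from 3431 to 1573 FPKM. ABCC4, an efflux pump of the basolateral membrane, fell from 3.34 to 1.30 FPKM, low values for which no reads were recovered and no interval exists.

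Glutathione synthesis and recycling gave 1 rise and 1 fall among 11 genes. GPX2, a glutathione peroxidase best known from gut epithelium, had 2.99, 5.12 and 2.45 FPKM in the IM, CM and CMT libraries, and with 6, 14 and 4 reads the interval of its ratio of CM to IM, 0.618 to 5.44, included equality. CTH, which makes cysteine from cystathionine, fell 1.78-fold from IM to CM, from 2046 to 1152 FPKM, with 1629 in CMT. Of the 6 thioredoxin and peroxiredoxin genes 0 rose and 2 fell. TXNIP, which binds and restrains thioredoxin, fell 3.14-fold, from 4952 FPKM in IM to 1577 in CM, with 2523 in CMT. TXNRD2, the mitochondrial reductase, fell 1.56-fold, from 114 to 73.1 FPKM, while its cytosolic counterpart TXNRD1 had a ratio of 1.28. None of the 6 NADPH supply genes that passed changed by 1.5-fold between IM and CM. TALDO1, transaldolase of the pentose phosphate pathway, was the most abundant of them and had 1347 FPKM in CM beside 1212 in IM and 1353 in CMT.

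Of the 10 haem and iron genes 0 rose and 2 fell from IM to CM. These were the biliverdin reductases, which act directly after haem oxygenase. BLVRA had 1014 FPKM in IM against 542 in CM and 1069 in CMT, and BLVRB, which is abundant in red cells, had 2155, 1224 and 2692. Both were lowest in CM, where HMOX1 also had its lowest value. BLVRB fell 1.76-fold from IM to CM. The erythroid sum given above was also lower in CM than in IM, and its part in the BLVRB values was not tested.

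Among 18 partners and regulators of NRF2, 2 rose and 3 fell from IM to CM. NFE2L3, a related factor, had 2.32, 4.31 and 1.33 FPKM in the IM, CM and CMT libraries, from 30, 76 and 14 reads. With these reads divided by 2, the interval of its ratio of CM to IM, 0.999 to 3.64, included equality. PALB2, a DNA repair protein that can bind KEAP1, had 24.2, 41.0 and 26.9 FPKM. MAFF, a small MAF protein, fell 1.57-fold from IM to CM and had its lowest value, 28.5 FPKM, in CMT. The sestrins, stress-induced proteins that promote the removal of KEAP1, also fell, SESN1 2.63-fold from 299 to 114 FPKM and SESN2 1.7-fold from 157 to 92.4 FPKM.

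**Figure D4:**
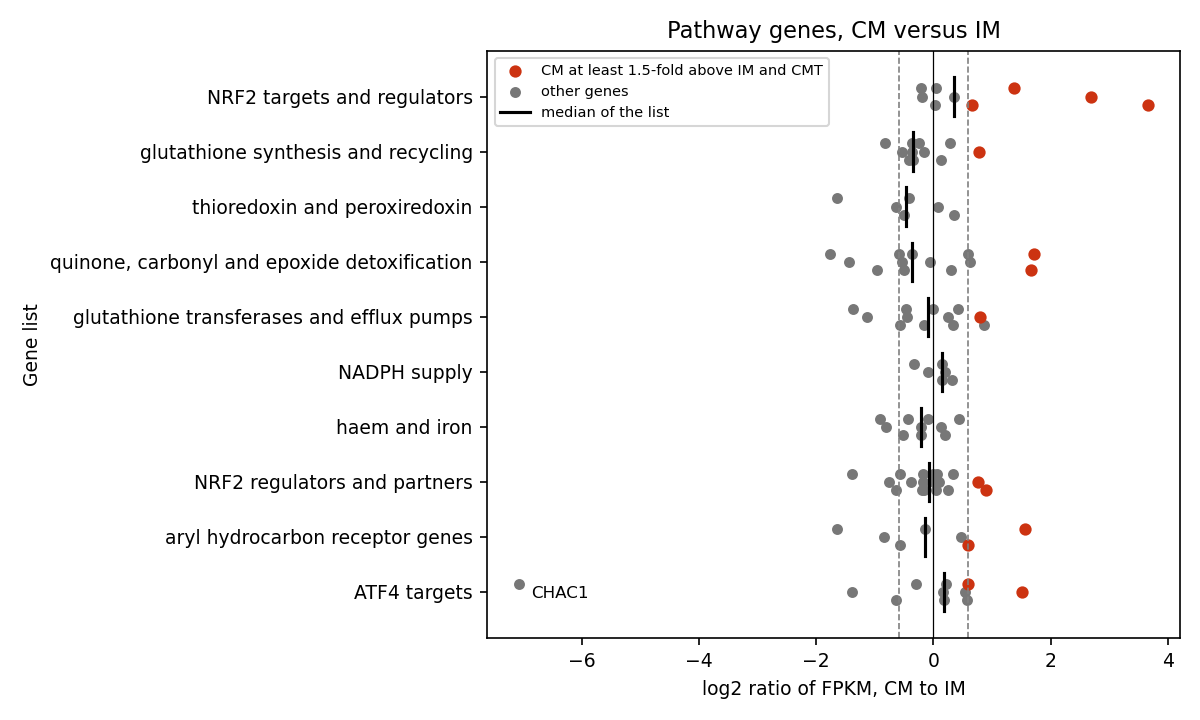
log2 ratio of FPKM, CM to IM, for each gene of the 9 NRF2 targets and regulators and of the pathway lists, 1 point per gene with FPKM of at least 1 in all 3 libraries. The lists scatter on both sides of equality, with medians from -0.46 for the thioredoxin and peroxiredoxin list to 0.35 for the set with NQO1, and CHAC1 lies farthest to the left.

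NQO1 is also known as a target of the aryl hydrocarbon receptor, and SLC7A11 as a target of the stress factor ATF4. Lists for both were therefore set beside the values above, and the part of either factor was not tested. Of 7 genes of the aryl hydrocarbon list, 2 rose and 2 fell from IM to CM. These are 28.6% each, beside 11.1% and 12.1% of all mRNA features. CYP1A1, its classic target and a monooxygenase of aromatic compounds, had 1591 FPKM in CM beside 536 in IM and 42.5 in CMT. CYP1A2 had 3502, 5294 and 101. Both were highest in CM, as NQO1 was. In CMT they were far under IM, and NQO1 in CMT was near IM. The transcript of AHR fell 3.14-fold from IM to CM, from 168 to 53.6 FPKM, and UGT1A6, a glucuronosyltransferase, fell 1.80-fold from 278 to 155 FPKM. No reads were recovered for AHR or UGT1A6, so these ratios have no interval.

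Of 11 ATF4 targets typed as mRNA that passed, 2 rose and 3 fell from IM to CM. These are 18.2% and 27.3%, beside 11.1% and 12.1% of all mRNA features. TRIB3, a pseudokinase, had 4.35 FPKM in IM against 12.4 in CM and 1.89 in CMT, and PHGDH, the first enzyme of serine synthesis, had 326, 491 and 145. CHAC1, an enzyme that breaks down glutathione, had 280, 2.07 and 271 FPKM in the IM, CM and CMT libraries, from 1190, 12 and 936 reads. The level of CHAC1 in IM was 135 times that in CM (77.1 to 262), the widest gap among all genes of these lists, and opposite in direction to SLC7A11. SHMT2, of serine and glycine metabolism, fell 1.55-fold and CEBPB, a transcription factor, fell 2.61-fold. SLC7A5, an amino acid transporter typed as miscRNA and so not counted, had 20.2, 8.91 and 4.98 FPKM from 10, 6 and 2 reads.

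Cell markers that moved with NQO1 are given here because NQO1 is also made outside hepatocytes, and their part in the result was not tested. All 10 bile duct cell markers were measured, with FPKM sums of 1671 in CM beside 1578 in IM and 2199 in CMT, led by SPP1 and ANXA4. Of 8 that passed, 3 rose from IM to CM, or 37.5%, beside 11.1% of all mRNA features, and 0 fell, beside 12.1%. EPCAM, among those that rose, had 36.6 FPKM in IM against 62.6 in CM and 41.4 in CMT. KRT7, which the files type as other than mRNA, had 12.9, 46.1 and 21.8. These defining markers were highest in CM, by 1.71-fold for EPCAM and 3.58-fold for KRT7 against IM, less than the 12.7-fold of NQO1. Of 9 proliferation markers, led by MKI67 and PCNA, 8 rose from IM to CM, or 88.9%, and 0 fell. Their FPKM sums were 323, 517 and 372 in the IM, CM and CMT libraries. Neutrophil and monocyte markers, led by S100A12 and LYZ, summed to 205, 91.5 and 76.5. Of these, 5 of 7, or 71.4%, fell from IM to CM, beside 12.1% of all mRNA features.

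For the other lists the sums were 22712, 21045 and 23881 FPKM for 11 macrophage markers, led by C1QA and C1QC. Of these 1 rose and 1 fell from IM to CM, or 9.09% each, close to the shares of all mRNA features. The sums were 630, 817 and 514 for 10 T and NK cell markers, led by NKG7 and CD4. Of these 1, or 10%, rose from IM to CM, beside 11.1% of all mRNA features. From CM to CMT 7, or 70%, fell, beside 13.5%. The 7 B and plasma cell markers, led by IGJ and MZB1, summed to 138, 156 and 141. Endothelial markers, led by CLEC4G and PECAM1, summed to 3715, 3075 and 3471, and stellate cell markers, led by ACTA2 and COL3A1, to 1601, 1675 and 1402.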

How the data were processed

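Total RNA from liver was pooled by group, and 1 TruSeq library per group was sequenced. The authors checked reads with FastQC, mapped them with TopHat to the pig genome (Sscrofa 10.2) and deposited FPKM per feature. The program that counted reads and the annotation are not given in the sources used here. Each file held 34579 features, of which 22945 were mRNA.

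FPKM values were used as deposited, without rescaling or a pseudocount. Within a gene they are whole multiples of a step, and from these steps reads were recovered for 23090 of 24277 features above 0 (95.1%). The shortest length of up to 10000 bases that made all 3 values whole was taken, so a factor common to a gene's reads can be lost, and mates of 1 pair may have been counted separately. This can make intervals too narrow for some genes. Intervals are 95% exact binomial intervals (Python 3.11.15, scipy 1.17.1) and cover counting error only. The recovery was tested on simulated data.

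The 1.5-fold and FPKM minimum of 1 are those of the study, and counts were restricted to features typed as mRNA. No test was run, since each group is 1 library. Genes were matched by symbol, RefSeq gene ID or, for 2, synonym. The named genes are the 9, every pathway gene past 1.5-fold between CM and IM (or, where a list has none, its most abundant gene), the 5 nearest to NQO1, and the 2 most abundant markers of each cell type. Some others, such as EPCAM, KRT7 and AKR1C4, were added after their values were seen. The members and lists were chosen with earlier results of these data known. Genome positions and sequences were not used here.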

Additional observations from a re-analysis of the deposited data

How the results depend on the processing

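Most of the results that moved did so under another fold threshold or another scaling. Relative to the values as deposited, equal totals of recovered reads raised every log2 ratio of CM to IM by 0.28, equal FPKM sums by 0.26, the upper quartile by 0.07 and the median ratio by 0.02. Under other settings 159 results were recomputed. Of these, 131 counts, medians or NQO1 ratios stayed within 1.5 times their value or, for NQO1, its interval. The other 28 moved further. Direction was assessed for medians and NQO1 ratios alone, of which 0 turned. It was not assessed for counts. The shares of all mRNA features were not recomputed under the other settings, so the changed counts have no background beside them. Of the wider pathway genes, more fell than rose from IM to CM as deposited, but more rose than fell with equal read totals and with equal sums. The single genes HMOX1 and GCLM, which are not among these, turned between IM and CM as given above. The median log2 ratio of the 9 genes for CM to IM went from 0.35 to 0.63 with equal read totals, to 0.61 with equal sums, and to 0.20 both with an FPKM minimum of 10 and with symbols alone. For CMT to CM it went from -0.49 to -0.74 with equal sums, and for CMT to IM from -0.14 to -0.053 with the minimum of 10 and with symbols alone. For the wider pathway genes from IM to CM, the 9 that rose became 16 with equal read totals, 14 with equal sums and 2 at 2-fold, and the 13 that fell became 8, 8 and 6. From CM to CMT the 11 that rose became 6, 6 and 5, and the 11 that fell became 18, 18 and 7. The rise of GCLM in CMT was lost, leaving 0 of the 9 genes, under each of these 3 settings. From IM to CMT the pathway genes that rose went from 2 to 4 with equal read totals, to 1 at 2-fold and to 1 when genes were matched by symbol alone, a setting chosen after seeing the data. Those that fell went from 12 to 5 at 2-fold and to 6 when the interval also had to exclude equality, and with upper quartile scaling 1 of the 9 genes, SLC7A11, fell. With equal read totals TXNRD1 reached 1.55-fold from IM to CM. No paired analysis was possible because each group has 1 library, and no library could be left out. Depth limits SLC7A11, GPX2, CBR1 and ADH7, with at most 32 reads in any library. It also limits NFE2L3, with 30, 76 and 14 reads, and ABCC4 is low and has no recovered reads.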

Other observations

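Some further genes are given as values, chosen after their values were seen. ALDH3A1 and IDH1 belong to the lists above, and the others do not. The metallothionein MT1A, a metal-binding protein, had 37008 FPKM in CM beside 14069 in IM and 4529 in CMT, and MT-III had 3192, 8512 and 761. Both were highest in CM and lowest in CMT. No reads could be recovered for either, and near-identical copies may share their reads. UGT1A10, a glucuronosyltransferase, had 5.58 FPKM in IM against 31.6 in CM and 6.87 in CMT, from 14, 108 and 14 reads, and in CMT it was near IM as NQO1 was. ALDH3A1, an aldehyde dehydrogenase of the detoxification list, was under the FPKM minimum with 0.756, 2.22 and 0.465 in the IM, CM and CMT libraries. IDH1, of the NADPH supply list, was listed at 0 in all 3 libraries.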
